A study of Homo sapiens with 8 samples.

Results

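The genes of the serine/arginine-rich (SR) splicing factors, of the heterogeneous nuclear ribonucleoproteins (hnRNPs), of the SR-like factors TRA2A and TRA2B and of the kinases CLK1 to CLK4 were followed in LP-1 cells, a human multiple myeloma line, after 6 hr of a bromodomain inhibitor. Members were the rows whose symbol was SRSF or HNRNP followed by their letters or numbers, or TRA2A, TRA2B or CLK1 to CLK4. Of 178 such rows, 134 were pseudogenes, and of the remaining 44 rows 4 had a mean under 1 RPKM (a read count divided by gene length and by the mapped reads of the library). The other 40 were analysed, out of 14732 genes whose mean reached 1 RPKM. They were 12 SRSF, 22 HNRNP, 2 TRA2 and 4 CLK rows. SRSF8 had 2 rows that overlap at the same place on chromosome 11 and are not independent.

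The cells received SGC-CBP30 at 2.5 μM, which binds the bromodomains of the acetyltransferases CBP and EP300, or CPI203 at 250 nM, which binds those of the BET proteins. Each compound had its own DMSO libraries, and all 4 groups (SGC-CBP30 and its DMSO, CPI203 and its DMSO) held 2 libraries. The study calls the replicates biological, but the labels do not say whether they came from separate cultures, so p-values measure only the spread between these libraries. The compounds differed in dose, and the experiments in their libraries. Marker levels were those of a plasma cell line. All 9 plasma cell markers were above 1 RPKM, and 0 of 4 B cell, 0 of 5 T cell and 0 of 5 myeloid markers were. Depth, estimated from the steps between low RPKM values, was 26000000 to 50100000 reads per library. Of the 38 members with a length in the GENCODE v29 annotation, HNRNPCL1 had the fewest estimated reads in a library, about 206. Reads of the SRSF8 rows were not estimated. Of the 40 rows, 12 were overlapped by another row of at least 1 RPKM.

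SR proteins bind exons through RNA recognition motifs and recruit the splicing machinery through tails rich in arginine and serine. CLK kinases phosphorylate these tails and thereby release SR proteins from nuclear speckles. hnRNPs coat nascent transcripts and often act against SR proteins at the same exons. Many genes of both families hold an exon whose inclusion or removal sends the transcript to nonsense-mediated decay, so a gene-level value sums coding and non-coding forms.

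By mean RPKM over the 8 libraries, a level per gene length, HNRNPA2B1, a core protein of the hnRNP particle, was the highest at 519, followed by HNRNPH1, which binds runs of G, at 249.8 and HNRNPC, which binds runs of U, at 244. The lowest were CLK4 at 7.50, HNRNPCL1 at 6.51 and the longer SRSF8 row (ENSG00000180771) at 4.70. In sum, the 40 rows took 1.02% to 1.04% of all RPKM in the DMSO controls of SGC-CBP30 and 1.01% to 1.02% in those of CPI203. After CPI203 this share was 0.90% in both libraries, and after SGC-CBP30 it was 1.02% and 1.03%. The difference with CPI203 lay mainly in the hnRNP genes, whose summed RPKM had a mean of 3408 in DMSO and 2807 in CPI203, and in the SRSF genes (1225 and 1086). The summed RPKM of the CLK genes went the other way (127.8 in DMSO, 185.8 in CPI203). These are shares of a library, in which fewer cells of a type and less RNA per cell cannot be told apart.

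The first comparison asked how BET bromodomain inhibition changed these genes. CPI203 lowered SRSF7, SRSF8, HNRNPD and HNRNPDL to between 42% and 52% of their DMSO level and raised CLK1, CLK2 and SRSF5 to between 153% and 171%. By limma with Benjamini-Hochberg adjustment over all genes tested, 12 members were higher and 20 lower at an adjusted p under 0.05, beside 31.1% of all genes higher and 33.1% lower. The median log2 fold change of the members was -0.13, and that of all genes tested was -0.01. With a change of at least 1.5-fold as well, 3 members were higher (CLK1, CLK2 and SRSF5; 13.4% of all genes) and 6 lower (SRSF7, both SRSF8 rows, HNRNPD, HNRNPDL and HNRNPA3; 14.4% of all genes). The shares of the members called were thus near or below the background for the 1.5-fold rule. By family, CPI203 raised 4 of 4 CLK, 2 of 2 TRA2, 4 of 12 SRSF and 2 of 22 HNRNP rows, and lowered 7 SRSF and 13 HNRNP rows. Only SRSF9 among the SRSF rows passed in neither direction.

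**Figure D1:**
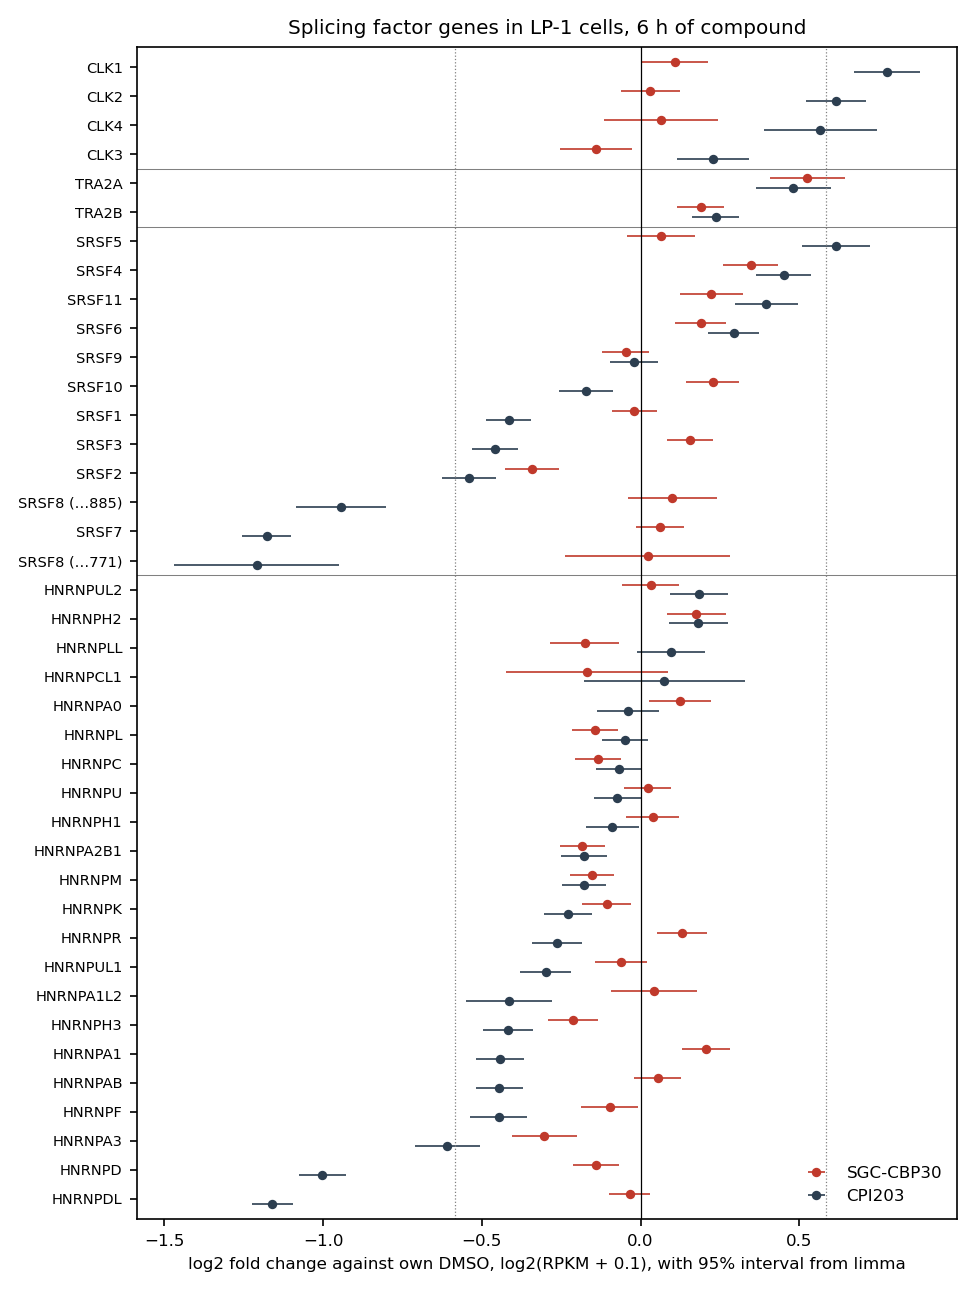
Log2 fold change of each of the 40 rows against its own DMSO (x axis, on the log2(RPKM + 0.1) scale) for SGC-CBP30 in red and CPI203 in dark blue, with 95% intervals from limma; rows are grouped by family and dotted lines mark 1.5-fold. The 4 CLK genes lay to the right for CPI203 and near 0 for SGC-CBP30, and SRSF7, SRSF8, HNRNPD and HNRNPDL lay far to the left for CPI203 and between -0.14 and 0.10 for SGC-CBP30.

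SRSF7, an SR protein with a zinc knuckle that also takes part in mRNA export, was at 138 and 136 RPKM in the DMSO libraries and at 61.1 and 59.5 RPKM in the CPI203 libraries. All 4 values of the SGC-CBP30 experiment were between 144 and 153 RPKM, so the CPI203 libraries stood alone. The log2 fold change was -1.18 ± 0.03 (SE; adjusted p = 7.9e-09). SRSF8, a retrotransposed relative of SRSF2, was read on 2 overlapping rows. The row ENSG00000271885 was at 23.5 and 21.7 RPKM in DMSO and at 12.1 and 11.2 RPKM in CPI203. The longer row was at 5.58 and 6.24 RPKM in DMSO and at 2.26 and 2.76 RPKM in CPI203. Both rows thus had lower values in each CPI203 library than in any DMSO library, with log2 fold changes of -0.94 ± 0.06 (SE; adjusted p = 9.79e-07) and -1.21 ± 0.12 (SE; adjusted p = 1.04e-05).

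HNRNPD, also known as AUF1, binds AU-rich elements and takes part in mRNA decay, and HNRNPDL is its closest paralogue. They lie next to each other among the members, 48.1 kb apart on chromosome 4 (hg19, chr4:83273650-83295656 and chr4:83343716-83351294). HNRNPD was at 218 and 228 RPKM in DMSO and at 109.6 and 113 RPKM in CPI203. HNRNPDL was at 190.2 and 190.3 RPKM in DMSO and at 84.4 and 85.8 RPKM in CPI203. Both neighbours fell, with no overlap between groups and log2 fold changes of -1.003 ± 0.03 and -1.16 ± 0.03 (SE; adjusted p = 1.6e-08 and 2.89e-09). HNRNPA3, a paralogue of HNRNPA1 and HNRNPA2B1, was at 62.0 and 63.5 RPKM in DMSO and at 42.7 and 39.6 RPKM in CPI203, a log2 fold change of -0.61 ± 0.05 (SE; adjusted p = 2.07e-06).

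The other SR proteins divided between both directions with CPI203. SRSF1, the founding member of the family, was at 206 and 212 RPKM in DMSO and at 159 and 154 RPKM in CPI203. SRSF2, a core component of nuclear speckles, was at 233 and 232 RPKM in DMSO and at 161 and 159 RPKM in CPI203. SRSF3, the smallest SR protein and an export adaptor, was at 89.2 and 88.9 RPKM in DMSO and at 64.9 and 64.7 RPKM in CPI203. These 3 genes were lower in both CPI203 libraries, with log2 fold changes of -0.41, -0.54 and -0.46 (adjusted p = 2.21e-06, 1.31e-06 and 1.4e-06). SRSF10, which acts as a repressor when dephosphorylated, was also lower (log2 fold change of -0.17, adjusted p = 0.00256), but did not pass with all 4 DMSO libraries as controls (adjusted p = 0.0722).

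SRSF4, SRSF5, SRSF6 and SRSF11, by contrast, rose. SRSF5 was at 123 and 111 RPKM in DMSO and at 180.3 and 179 RPKM in CPI203. SRSF4 was at 36.6 and 37.4 RPKM in DMSO and at 51.3 and 49.97 RPKM in CPI203. SRSF6 was at 85.0 and 82.5 RPKM in DMSO and at 102.5 and 102.8 RPKM in CPI203. In each of these 3 genes both CPI203 libraries lay above both DMSO libraries, and the log2 fold changes were 0.62, 0.45 and 0.29 (adjusted p = 2.43e-06, 5.01e-06 and 5.37e-05). SRSF11 rose by 0.40 (adjusted p = 3e-05). SRSF5 and CLK2 cleared the 1.5-fold line narrowly, and without the second DMSO library of the CPI203 experiment their log2 fold changes were 0.54 and 0.58, which left CLK1 as the single member called higher.

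The CLK genes rose together with CPI203. CLK1 was at 32.4 and 31.5 RPKM in DMSO and at 56.5 and 53.0 RPKM in CPI203. CLK2 was at 47.3 and 44.9 RPKM in DMSO and at 71.2 and 70.2 RPKM in CPI203. CLK4, expressed at a much lower level per gene length, was at 6.65 and 6.13 RPKM in DMSO and at 9.84 and 9.18 RPKM in CPI203. In all 3 kinases the CPI203 libraries lay above every DMSO library of either experiment. CLK3 was at 44.6 and 42.2 RPKM in DMSO and at 51.5 and 50.2 RPKM in CPI203. The log2 fold changes of CLK1, CLK2, CLK4 and CLK3 were 0.78 ± 0.05, 0.62 ± 0.04, 0.57 ± 0.08 and 0.23 ± 0.05 (SE; adjusted p = 4.92e-07, 1.09e-06, 0.00015 and 0.00275). CLK3 did not pass with all 4 DMSO libraries as controls (adjusted p = 0.0519). It overlaps EDC3, a gene of similar level (means of 46.0 and 40.5 RPKM), and whether reads were assigned by strand is not given in the sources used here.

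**Figure D2:**
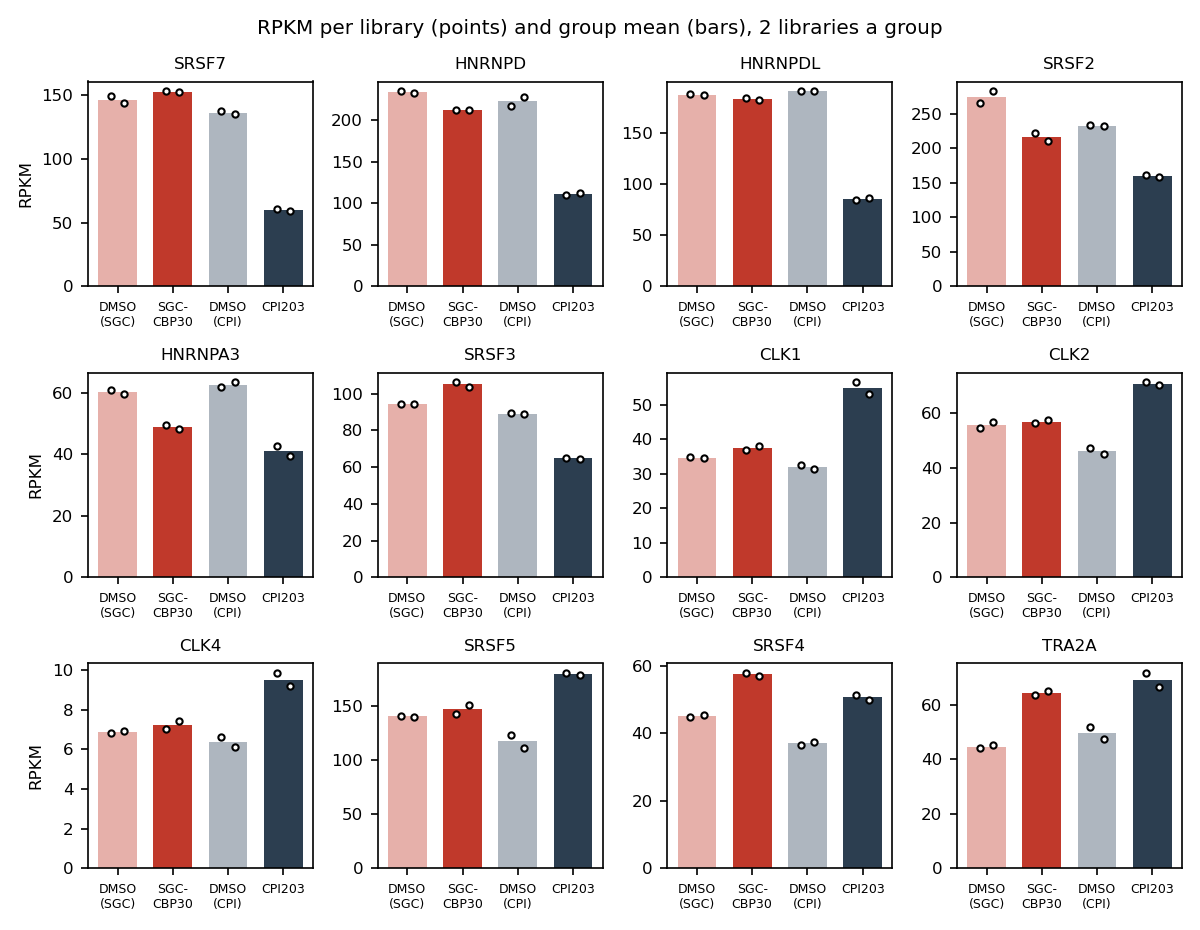
RPKM (y axis, from 0) of 12 members in the 4 groups on the x axis, with 2 libraries a group as points and their mean as a bar. SRSF7, HNRNPD and HNRNPDL were low in the CPI203 group, CLK1, CLK2, CLK4 and SRSF5 were high in it, and TRA2A and SRSF4 were higher with each compound than in its own DMSO.

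Among the hnRNP genes, 13 of 22 passed the test as lower with CPI203 and 2 as higher (33.1% and 31.1% of all genes). The highest of them, HNRNPA2B1, was at 546 and 576 RPKM in DMSO and at 499 and 493 RPKM in CPI203, a log2 fold change of -0.18 ± 0.03 (SE; adjusted p = 0.000787). Besides those already given, HNRNPAB (-0.45), HNRNPF (-0.45), HNRNPA1 (-0.44), HNRNPH3 (-0.42), HNRNPA1L2 (-0.42), HNRNPUL1 (-0.30), HNRNPR (-0.26), HNRNPK (-0.23) and HNRNPM (-0.18) were lower on the log2 scale. HNRNPA1 and HNRNPA1L2 did not pass with all 4 DMSO libraries as controls (adjusted p = 0.785 and 0.497). HNRNPH2 and HNRNPUL2 were higher, both by 0.18. HNRNPUL2 overlaps another row of similar level, RP11-831H9.16 (means of 56.2 and 43.8 RPKM). HNRNPA0, HNRNPC, HNRNPCL1, HNRNPH1, HNRNPL, HNRNPLL and HNRNPU did not pass, with log2 fold changes from -0.09 to 0.10. HNRNPC and HNRNPH1, the next after HNRNPA2B1 by level, were at 269.7 and 283 RPKM and at 251 and 250.5 RPKM in DMSO, and at 268 and 259 RPKM and at 239 and 233 RPKM in CPI203. Their levels were thus close to those in DMSO, and the intervals of the 7 that did not pass are drawn in the plot of changes by family.

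The promoters of the members called at 1.5-fold with CPI203 are shown to let their sequence be compared. They are the 250 bases before the gene start from RefSeq (GRCh38.p14, a later build than the hg19 positions of the data), written 5′ to 3′ on the gene's strand, and capitals mark each match, on either strand, to any of 7 motifs. The E-box, CACGTG, is bound by basic helix-loop-helix factors such as MYC. The letters CCGGAA are the core of sites for ETS factors. The CCAAT box is the site of the factor NF-Y, which many growth-related promoters carry. The GC box, GGGCGG, is bound by factors of the SP family. The TATA box was searched as TATAAA, the letters that place the start of transcription in a minority of promoters. The other motifs were the CRE, with the letters TGACGTCA, bound by CREB, and the NRF1 site, searched as GCGCATGC. No matches to different motifs overlapped. The genes that fell with CPI203 come first.
SRSF7 (chr2:38751495-38751744, minus strand): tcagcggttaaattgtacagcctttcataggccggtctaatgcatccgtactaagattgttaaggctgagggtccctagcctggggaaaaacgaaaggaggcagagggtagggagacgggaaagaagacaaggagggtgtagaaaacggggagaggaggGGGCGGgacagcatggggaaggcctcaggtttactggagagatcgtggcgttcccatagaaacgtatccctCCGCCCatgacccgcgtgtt
SRSF8 (chr11:95066627-95066876, plus strand): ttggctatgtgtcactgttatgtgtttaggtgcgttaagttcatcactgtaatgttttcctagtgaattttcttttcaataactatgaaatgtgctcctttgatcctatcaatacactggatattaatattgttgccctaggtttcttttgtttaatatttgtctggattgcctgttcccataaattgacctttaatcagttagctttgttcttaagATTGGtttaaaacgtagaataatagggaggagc
HNRNPD (chr4:82373992-82374241, minus strand): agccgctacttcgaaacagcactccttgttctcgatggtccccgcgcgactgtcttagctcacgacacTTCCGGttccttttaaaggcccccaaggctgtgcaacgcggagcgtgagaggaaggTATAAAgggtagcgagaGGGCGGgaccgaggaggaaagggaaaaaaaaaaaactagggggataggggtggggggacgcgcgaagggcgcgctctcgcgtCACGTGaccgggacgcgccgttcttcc
HNRNPDL (chr4:82430226-82430475, minus strand): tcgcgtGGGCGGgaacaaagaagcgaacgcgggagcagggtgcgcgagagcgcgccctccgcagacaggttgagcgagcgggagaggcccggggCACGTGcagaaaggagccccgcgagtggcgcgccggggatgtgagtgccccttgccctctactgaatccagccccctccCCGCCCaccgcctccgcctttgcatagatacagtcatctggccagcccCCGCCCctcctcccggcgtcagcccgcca
HNRNPA3 (chr2:177212544-177212793, plus strand): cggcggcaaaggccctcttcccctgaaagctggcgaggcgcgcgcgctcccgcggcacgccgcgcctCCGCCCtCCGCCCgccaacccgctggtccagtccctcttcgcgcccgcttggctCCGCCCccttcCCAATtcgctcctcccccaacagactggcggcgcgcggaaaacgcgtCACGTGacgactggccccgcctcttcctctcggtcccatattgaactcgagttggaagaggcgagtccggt
CLK1 (chr2:200864659-200864908, minus strand): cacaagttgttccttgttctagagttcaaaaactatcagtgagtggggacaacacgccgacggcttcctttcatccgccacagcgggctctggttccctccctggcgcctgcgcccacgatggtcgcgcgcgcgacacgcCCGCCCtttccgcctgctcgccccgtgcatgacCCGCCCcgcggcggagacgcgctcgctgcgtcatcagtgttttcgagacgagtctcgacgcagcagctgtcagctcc
CLK2 (chr1:155273505-155273754, minus strand): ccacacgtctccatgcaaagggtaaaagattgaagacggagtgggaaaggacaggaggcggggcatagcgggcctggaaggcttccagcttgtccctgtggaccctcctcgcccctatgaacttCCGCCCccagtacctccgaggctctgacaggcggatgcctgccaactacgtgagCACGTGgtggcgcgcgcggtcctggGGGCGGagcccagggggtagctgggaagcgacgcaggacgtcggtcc
SRSF5 (chr14:69766892-69767141, plus strand): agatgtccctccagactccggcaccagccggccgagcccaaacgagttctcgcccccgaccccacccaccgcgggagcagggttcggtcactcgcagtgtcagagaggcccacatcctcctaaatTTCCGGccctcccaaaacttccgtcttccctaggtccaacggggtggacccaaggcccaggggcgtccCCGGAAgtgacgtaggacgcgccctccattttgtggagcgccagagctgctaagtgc
The neighbours HNRNPD and HNRNPDL both held an E-box, starting 27 and 156 bases before the gene start, as did HNRNPA3 (71 bases) and CLK2 (72 bases), which moved the other way. SRSF7 and CLK1 held only GC boxes, SRSF5 only ETS cores and SRSF8, at 33.6% GC, only a CCAAT box. Of the 39 member symbols, 36 had a promoter in the table. TRA2A, HNRNPA1 and SRSF2 had no entry. The E-box was found in 8 of these 36, in 3 of 11 that rose and 5 of 17 that fell with CPI203, and in 6.5% of all 27305 promoters. The GC box was found in 23 of 36 members (42.3% of all promoters), the CCAAT box in 17 (33.0%), the ETS core in 7 (14.8%), the TATA box in 5 (11.1%), the NRF1 site in 1 (2.8%) and the CRE in 0 (1.8%). Median GC content was 65% in the members and 58% in all promoters. A match is a description of the letters in this window.

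The second comparison asked how CBP/EP300 bromodomain inhibition changed the same genes. Taken without its sign, the log2 fold change had a median of 0.13 with SGC-CBP30 and 0.41 with CPI203. TRA2A rose most, to 144% of its DMSO level, followed by SRSF4 at 127%, while SRSF2 and HNRNPA3 fell to 79% and 81%. At an adjusted p under 0.05, 11 members were higher and 10 lower, beside 25.6% of all genes higher and 14.8% lower. The count of members called at 1.5-fold was 0 in either direction, beside 3.47% of all genes higher and 3.79% lower. An unadjusted p under 0.05 in limma was found for 24 members. The share of all genes at that unadjusted p is not given here, so this count has no background. The median log2 fold change was 0.03 for the members and 0.07 for all genes tested. This balance depended on the scaling. When libraries were scaled to a common median 7 members were higher and 16 lower, and after quantile normalization 15 were higher and 5 lower. Of the members that passed, 52.4% were higher as deposited, 30.4% under median scaling and 75% after quantile normalization. Of all genes that passed, 63.4%, 43.9% and 56.0% were higher in the same order. Under all 3 scalings, 7 members were higher (TRA2A, TRA2B, SRSF4, SRSF6, SRSF10, SRSF11 and HNRNPA1) and 4 lower (SRSF2, HNRNPA3, HNRNPH3 and HNRNPLL). The share of all genes that held under all 3 was not computed. Of the members named, SRSF2, HNRNPLL, HNRNPA1 and SRSF10 did not pass with all 4 DMSO libraries as controls (adjusted p = 0.111, 0.0513, 0.665 and 0.0541).

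TRA2A, which with TRA2B activates exons rich in GAA repeats, was at 44.0 and 45.3 RPKM in the DMSO libraries and at 63.7 and 65.0 RPKM in the SGC-CBP30 libraries. With CPI203 it went from 51.6 and 47.2 RPKM to 71.5 and 66.6 RPKM. In both experiments the treated libraries were above all 4 DMSO libraries. The log2 fold changes were 0.53 ± 0.05 and 0.48 ± 0.05 (SE; adjusted p = 8.72e-05 and 2.67e-05). TRA2B was at 184 and 182 RPKM in DMSO and at 211 and 206 RPKM in SGC-CBP30, and at 172 and 180.4 RPKM in DMSO and at 209 and 205 RPKM in CPI203. It rose by less than TRA2A with each compound, by 0.19 and 0.24 on the log2 scale (adjusted p = 0.00191 and 0.000148). TRA2A accordingly took 19.3% and 20.0% of the summed RPKM of the pair in DMSO and 23.2% and 24.0% in SGC-CBP30, and 23.1% and 20.8% in DMSO and 25.4% and 24.5% in CPI203.

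SRSF4 was at 44.9 and 45.3 RPKM in DMSO and at 57.8 and 57.1 RPKM in SGC-CBP30, a log2 fold change of 0.35 ± 0.04 (SE; adjusted p = 0.000158). SRSF6 was at 91.0 and 89.8 RPKM in DMSO and at 105.3 and 101 RPKM in SGC-CBP30, a log2 fold change of 0.19 (adjusted p = 0.0027). SRSF2 was at 265 and 282 RPKM in DMSO and at 222 and 211 RPKM in SGC-CBP30, a log2 fold change of -0.34 ± 0.04 (SE; adjusted p = 0.000158). These 3 changes had the direction that CPI203 gave to the same genes. The fall of SRSF2 did not pass (adjusted p = 0.111) when all 4 DMSO libraries served as controls, and its level in DMSO was higher by 0.23 on the log2 scale in the SGC-CBP30 experiment (adjusted p = 0.0011). SRSF2 also overlaps MFSD11 (mean of 40.9 RPKM).

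SRSF10 and SRSF11 rose as well. SRSF10 was at 84.1 and 81.0 RPKM in DMSO and at 96.4 and 96.9 RPKM in SGC-CBP30, a log2 fold change of 0.23 ± 0.04 (SE; adjusted p = 0.0014). SRSF11 was at 70.0 and 66.0 RPKM in DMSO and at 80.4 and 78.3 RPKM in SGC-CBP30, a log2 fold change of 0.22 ± 0.04 (SE; adjusted p = 0.00353). SRSF3 was at 94.2 and 94.4 RPKM in DMSO and at 106 and 104 RPKM in SGC-CBP30, a rise of 0.16 (adjusted p = 0.00468) that did not pass under median scaling (adjusted p = 0.0936). SRSF1 was at 203 and 199 RPKM in DMSO and at 198.4 and 198.5 RPKM in SGC-CBP30. SRSF5 was at 141 and 139.9 RPKM in DMSO and at 143 and 151 RPKM in SGC-CBP30. SRSF1 and SRSF5 did not pass (adjusted p = 0.642 and 0.316). SRSF7, at 149.8 and 144 RPKM in DMSO and at 153.3 and 152.8 RPKM in SGC-CBP30, did not pass either (adjusted p = 0.185). Under median scaling SRSF1 passed as lower (-0.10, adjusted p = 0.0317). After quantile normalization SRSF7 passed as higher (0.14, adjusted p = 0.0114). The SRSF8 rows were at 22.3 and 21.5 RPKM in DMSO and at 23.9 and 23.0 RPKM in SGC-CBP30, and at 5.23 and 5.07 RPKM and at 5.09 and 5.38 RPKM, and did not pass (adjusted p = 0.233 and 0.897). The genes that fell most with CPI203 among the SR proteins thus had SGC-CBP30 means between 102% and 107% of DMSO.

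CLK1 was at 34.8 and 34.5 RPKM in DMSO and at 36.8 and 38.0 RPKM in SGC-CBP30. CLK2 was at 54.6 and 56.7 RPKM in DMSO and at 56.3 and 57.4 RPKM in SGC-CBP30. The 4 CLK genes all failed the test, with log2 fold changes of 0.11, 0.03, -0.14 and 0.06 for CLK1 to CLK4, and CLK3 was closest to it (adjusted p = 0.0522) and passed as lower under both other scalings. CLK3 was at 45.0 and 48.9 RPKM in DMSO and at 43.1 and 42.1 RPKM in SGC-CBP30, and CLK4 at 6.84 and 6.93 RPKM and at 7.004 and 7.41 RPKM.

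The hnRNP genes changed by -0.30 to 0.21 on the log2 scale with SGC-CBP30. At an adjusted p under 0.05, 4 of 22 were higher and 9 lower (25.6% and 14.8% of all genes). After quantile normalization 7 were higher and 3 lower, and 6 of the 9 no longer passed. Of the 9, HNRNPA3 was at 60.97 and 59.7 RPKM in DMSO and at 49.6 and 48.2 RPKM in SGC-CBP30, a log2 fold change of -0.30 ± 0.05 (SE; adjusted p = 0.000888). HNRNPA2B1 was at 544 and 539 RPKM in DMSO and at 468 and 486 RPKM in SGC-CBP30, a log2 fold change of -0.18 (adjusted p = 0.00193), and this fall was absent after quantile normalization (-0.00, adjusted p = 0.998). HNRNPD was at 235 and 233 RPKM in DMSO and at 212.6 and 212.7 RPKM in SGC-CBP30, a log2 fold change of -0.14 (adjusted p = 0.00807), and HNRNPDL at 188 and 187 RPKM and at 184 and 182 RPKM (adjusted p = 0.374). Both SGC-CBP30 changes were small beside those with CPI203. Under median scaling HNRNPDL passed as lower (-0.11, adjusted p = 0.0154). HNRNPH3 (-0.21), HNRNPLL (-0.18), HNRNPM (-0.15), HNRNPL (-0.14), HNRNPC (-0.14) and HNRNPK (-0.11) were also lower, and HNRNPA1 (0.21), HNRNPH2 (0.18), HNRNPR (0.13) and HNRNPA0 (0.13) were higher. Of these 4, HNRNPH2, HNRNPR and HNRNPA0 did not pass under median scaling, nor without DMSO replicate 2 or SGC-CBP30 replicate 2 of that experiment, and HNRNPR also lost the call without DMSO replicate 1 and HNRNPA0 without SGC-CBP30 replicate 1. HNRNPK did not pass when any single library of the SGC-CBP30 experiment was left out. HNRNPLL lost the call without DMSO replicate 2 or SGC-CBP30 replicate 1 (log2 fold changes of -0.13 and -0.15). HNRNPC and HNRNPL lost it without SGC-CBP30 replicate 2 (-0.131 and -0.134). With all 4 DMSO libraries as controls, HNRNPC, HNRNPD, HNRNPK, HNRNPL, HNRNPLL and HNRNPM did not pass (adjusted p = 0.0864, 0.159, 0.14, 0.946, 0.0513 and 0.341). HNRNPC was at 229.1 and 228.8 RPKM in DMSO and at 209 and 208 RPKM in SGC-CBP30, and HNRNPH1, which did not pass (adjusted p = 0.442), at 262 and 243 RPKM and at 261 and 258 RPKM. HNRNPLL is a regulator of CD45 splicing in lymphocytes.

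The difference between the effects of both compounds was then tested in the same fit, each effect taken against its own DMSO. The effects differed at an adjusted p under 0.05 for 26 members, 18 of them with the higher value for SGC-CBP30 (29.3% of all genes) and 8 with the higher value for CPI203 (21% of all genes). At a difference of at least 1.5-fold, 7 members had the higher value for SGC-CBP30 (SRSF7, both SRSF8 rows, SRSF3, HNRNPD, HNRNPDL and HNRNPA1; 14.8% of all genes) and 1, CLK1, for CPI203 (9.68% of all genes). The difference, SGC-CBP30 minus CPI203, was 1.24 ± 0.05 for SRSF7, 1.13 ± 0.04 for HNRNPDL and 0.86 ± 0.05 for HNRNPD on the log2 scale (SE; adjusted p = 1.88e-07, 1.37e-07 and 1.01e-06). It was -0.67 ± 0.07 for CLK1, -0.58 ± 0.06 for CLK2, -0.50 ± 0.11 for CLK4 and -0.37 ± 0.07 for CLK3 (adjusted p = 2.98e-05, 3.49e-05, 0.00449 and 0.002). SRSF5 differed by -0.55 ± 0.07 (adjusted p = 0.000112).

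The members fell into classes by these tests. The share of all genes in each class was not computed, so the class counts have no background of their own. Taken singly, CPI203 passed 31.1% of all genes as higher and 33.1% as lower, and SGC-CBP30 25.6% and 14.8%. With both compounds, 6 passed as higher (HNRNPH2, SRSF4, SRSF6, SRSF11, TRA2A and TRA2B), and the difference between compounds passed for 1 of the 6, SRSF11 (adjusted p = 0.0422). It did not pass for SRSF11 without the intensity trend (adjusted p = 0.11) or when any single library was left out, other than DMSO replicate 2 of either experiment. With both compounds, 7 passed as lower (HNRNPA2B1, HNRNPA3, HNRNPD, HNRNPH3, HNRNPK, HNRNPM and SRSF2), and the difference passed for 4 of them (HNRNPA3, HNRNPD, HNRNPH3 and SRSF2), though not for SRSF2 under median scaling, without the intensity trend or without SGC-CBP30 replicate 1. For 4 members, HNRNPA1, HNRNPR, SRSF3 and SRSF10, SGC-CBP30 was higher and CPI203 lower, and the difference passed in each. The reverse was found for 0 members. These opposite calls depended on the controls. With all 4 DMSO libraries as controls, SRSF10 passed with neither compound (adjusted p = 0.0541 for SGC-CBP30 and 0.0722 for CPI203). HNRNPA1 also passed with neither (adjusted p = 0.665 and 0.785), and HNRNPR did not pass with SGC-CBP30 (adjusted p = 0.0594). The shared directions depended on the settings as well. After quantile normalization HNRNPA2B1, HNRNPD, HNRNPK and HNRNPM did not pass with SGC-CBP30 (adjusted p = 0.998, 0.341, 0.858 and 0.131). With all 4 DMSO libraries as controls, HNRNPD, HNRNPK, HNRNPM and SRSF2 did not pass with SGC-CBP30. Nor did HNRNPH2 (adjusted p = 0.795), which also did not pass under median scaling (adjusted p = 0.0881). A further 15 members passed with CPI203 and not with SGC-CBP30, 6 higher (CLK1 to CLK4, SRSF5 and HNRNPUL2) and 9 lower, and the difference passed for all 15. For HNRNPUL2 it passed narrowly (adjusted p = 0.0479), and did not pass without the intensity trend (adjusted p = 0.106) or when any single library other than DMSO replicate 2 of the CPI203 experiment was left out. Another 4 passed with SGC-CBP30 and not with CPI203. The difference passed for HNRNPLL (adjusted p = 0.0082) and narrowly for HNRNPA0 (adjusted p = 0.0488, lost under both other scalings), and was not shown for HNRNPC and HNRNPL (adjusted p = 0.249 and 0.116). HNRNPCL1, HNRNPH1, HNRNPU and SRSF9 passed with neither. These classes depended on the scaling. With SGC-CBP30 under median scaling, SRSF1, HNRNPDL, HNRNPF, HNRNPUL1, CLK3 and SRSF9 passed as lower. After quantile normalization SRSF7, HNRNPAB, HNRNPH1 and HNRNPU passed as higher with SGC-CBP30, and CLK3 as lower. With CPI203, HNRNPH1 and HNRNPU passed as lower under median scaling. HNRNPC and HNRNPL did not pass with SGC-CBP30 after quantile normalization. For TRA2A the difference between the compounds was 0.04, with a 95% interval from -0.12 to 0.21 (adjusted p = 0.648), and for TRA2B it was -0.05 (adjusted p = 0.431), and these do not show that the compounds act alike.

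**Figure D3:**
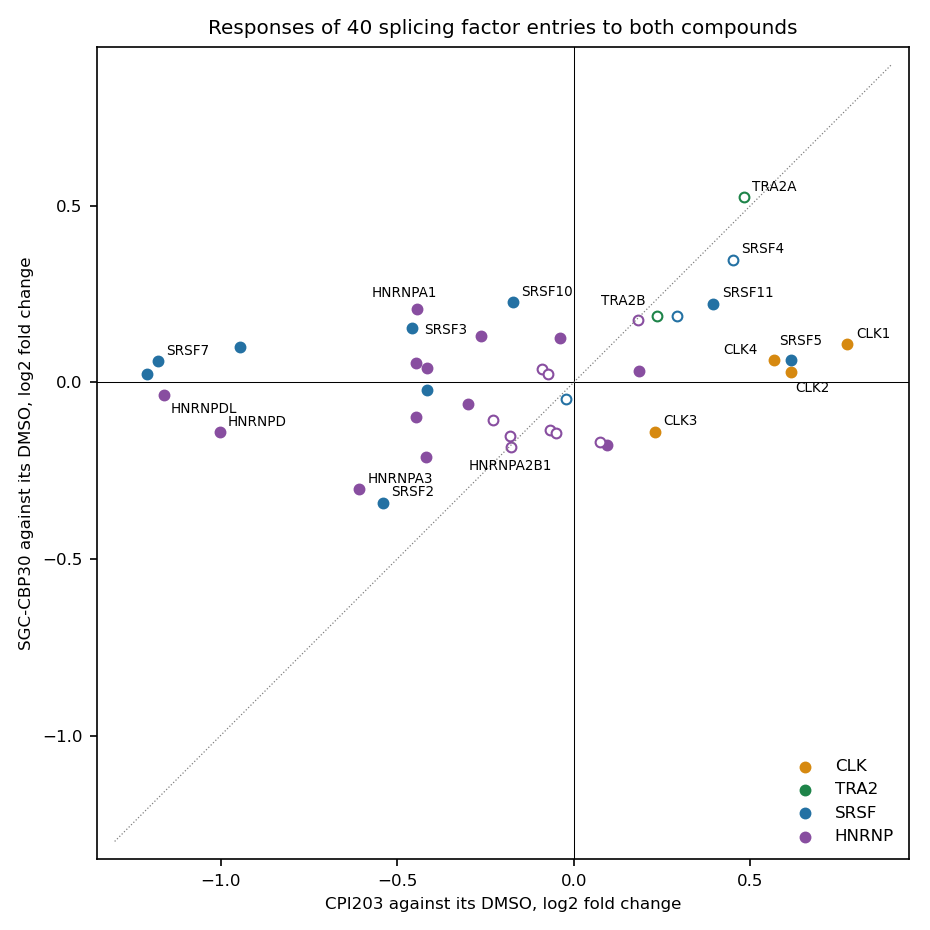
Log2 fold change with SGC-CBP30 (y axis) against that with CPI203 (x axis), each against its own DMSO, for the 40 rows coloured by family; filled points are rows whose effects differed at an adjusted p under 0.05 and the dotted line marks equal effects. TRA2A lay near the line at 0.48 and 0.53, the CLK genes and SRSF5 to the right near 0 on the y axis, and SRSF7 and HNRNPDL to the left near 0 on it.

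The DMSO libraries of both experiments were also compared, as the background of the comparison between compounds. At an adjusted p under 0.05, 13 members were higher and 6 lower in the SGC-CBP30 experiment (21.5% and 20.3% of all genes). At 1.5-fold, 0 were higher and 2 lower, HNRNPA1 and HNRNPA1L2 (3.91% and 3.93% of all genes). An unadjusted p under 0.05 in limma was found for 25 members, again without a share of all genes beside it. HNRNPA1, a splicing repressor that shuttles between nucleus and cytoplasm, was at 118.4 and 117.7 RPKM in DMSO and at 138 and 134 RPKM in SGC-CBP30, and at 199.7 and 191 RPKM in DMSO and at 144.5 and 143 RPKM in CPI203. HNRNPA1L2, a near-identical retrocopy of HNRNPA1 whose reads cannot be told apart with certainty, is given by library after its values were seen and was at 9.18 and 8.81 RPKM in DMSO and at 9.55 and 8.98 RPKM in SGC-CBP30, and at 30.9 and 29.4 RPKM in DMSO and at 22.9 and 22.2 RPKM in CPI203. The values of HNRNPA1L2 in the experiments did not overlap, whatever the treatment. Between the DMSO groups HNRNPA1 differed by -0.73 ± 0.03 and HNRNPA1L2 by -1.73 ± 0.06 on the log2 scale (SE; adjusted p = 3.76e-07 and 6.06e-08). HNRNPA1L2 was 6.26% to 7.20% of the summed RPKM of the pair in the SGC-CBP30 experiment and 13.3% to 13.7% in the CPI203 experiment. With all 4 DMSO libraries as controls, the SGC-CBP30 effect on HNRNPA1 turned to -0.16 (adjusted p = 0.665), the CPI203 effect on it went to -0.08 (adjusted p = 0.785) and the CPI203 effect on HNRNPA1L2 to 0.45 (adjusted p = 0.497). Experiment and compound cannot be told apart in such a comparison of levels.

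Other genes of the splicing pathway were read from lists of factors outside the families above. SR-related proteins and SR kinases rose with CPI203 in 21 of 32 cases and fell in 3, and with SGC-CBP30 16 rose and 0 fell (9 and 2 under median scaling), beside 31.1% of all genes higher and 33.1% lower with CPI203, and 25.6% and 14.8% with SGC-CBP30. Their median log2 fold changes were 0.20 and 0.14, beside -0.01 and 0.07 for all genes tested. With CPI203, DYRK1B, a kinase of the DYRK family, had a mean of 3.31 RPKM in DMSO and 8.19 RPKM in CPI203 (log2 fold change of 1.29 ± 0.11, SE), and CCNL2, a cyclin of nuclear speckles, of 38.0 and 69.7 RPKM (0.88 ± 0.05). hnRNP proteins with other symbols went the way of the HNRNP genes with CPI203, 4 of 24 higher and 14 lower (31.1% and 33.1% of all genes). Among them the splicing regulator RBMX had a mean of 129.96 RPKM in DMSO and 65.2 RPKM in CPI203 (-0.99 ± 0.03) and its retrocopy RBMXL1 of 19.3 and 10.8 RPKM (-0.84 ± 0.07), while the cold-inducible CIRBP was higher (145.5 and 228 RPKM, 0.65 ± 0.03). With SGC-CBP30, 3 of the 24 were higher and 8 lower (25.6% and 14.8% of all genes), and after quantile normalization 7 were higher and 7 lower. Their median log2 fold changes were -0.18 with CPI203 and -0.05 with SGC-CBP30.

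Proteins of the snRNPs and the spliceosome were mixed, 16 of 62 higher and 27 lower with CPI203 (31.1% and 33.1% of all genes), and 22 higher and 9 lower with SGC-CBP30 (25.6% and 14.8% of all genes), which became 12 higher and 18 lower under median scaling. Their median log2 fold changes were -0.07 with CPI203 and 0.03 with SGC-CBP30. SLU7, a factor of the second catalytic step, rose with CPI203 from a mean of 27.5 to 48.4 RPKM (0.82 ± 0.05) and LUC7L, a U1-associated protein, from 40.8 to 63.5 RPKM (0.64 ± 0.04), and SNRPA1 of the U2 snRNP fell from 43.9 to 28.7 RPKM (-0.61 ± 0.05). PRPF39, a U1 snRNP factor, was the single gene of this list called at 1.5-fold with SGC-CBP30, from 11.8 to 18.2 RPKM (0.62 ± 0.07). Other splicing regulators rose with CPI203 in 15 of 25 cases and fell in 7 (31.1% and 33.1% of all genes). With SGC-CBP30 5 rose and 3 fell (25.6% and 14.8% of all genes). Their median log2 fold changes were 0.16 and 0.03, beside -0.01 and 0.07 for all genes tested. RBM47, an RNA-binding regulator, fell with each compound, from a mean of 20.3 to 10.8 RPKM with SGC-CBP30 (-0.90 ± 0.07) and from 21.4 to 8.63 RPKM with CPI203 (-1.302 ± 0.07), and CELF2, a CUG-binding regulator, fell from 38.5 to 23.6 RPKM and from 34.0 to 21.8 RPKM (-0.70 ± 0.06 and -0.64 ± 0.06). RBM5 and RBM15 rose with CPI203 (0.95 ± 0.05 and 0.87 ± 0.10), and NOVA1, a splicing factor known from neurons, rose with SGC-CBP30 from 1.41 to 2.74 RPKM (0.90 ± 0.17). All these named genes passed limma's test, with adjusted p from 1.92e-08 to 0.00287.

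Factors of nonsense-mediated decay, which removes the non-coding forms of SR and hnRNP transcripts, rose in 8 of 19 cases with CPI203 and fell in 8 (31.1% and 33.1% of all genes), and with SGC-CBP30 4 rose and 0 fell (25.6% and 14.8% of all genes). Their median log2 fold changes were -0.01 and 0.03, beside -0.01 and 0.07 for all genes tested. The list was not tested as a set. With CPI203 the helicase DHX34 fell from a mean of 9.17 to 3.45 RPKM (-1.40 ± 0.14), and the decapping cofactor PNRC2 and the exon junction protein EIF4A3 rose from 46.7 to 78.0 RPKM and from 63.0 to 95.9 RPKM (0.74 ± 0.04 and 0.61 ± 0.04). In GENCODE v29, 28 of the 38 members with a coding transcript (73.7%) also listed a transcript subject to this decay and 27 (71.1%) a retained-intron transcript, beside 45.4% and 59.6% of 10621 tested genes with a coding transcript. The members also listed more transcripts per gene, a median of 11.5 beside 8, and the shares were not adjusted for this. The RPKM values of these libraries do not tell such transcripts apart.

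**Figure D4:**
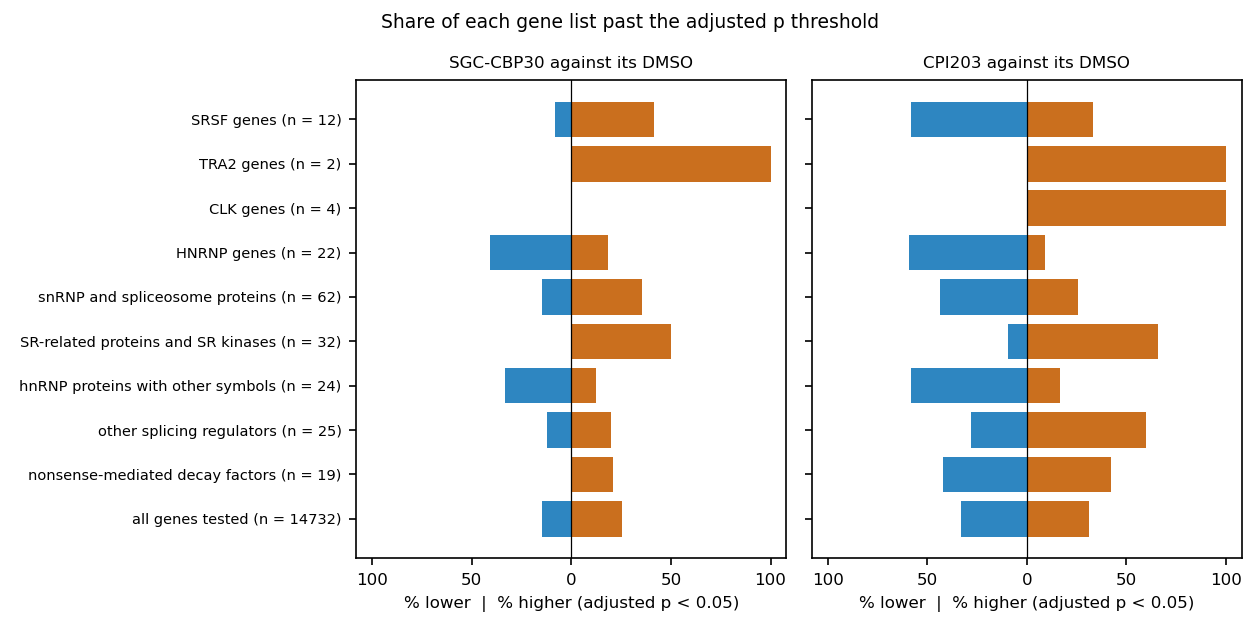
Share of the measured genes of each family or list that were higher (orange, to the right) or lower (blue, to the left) at an adjusted p under 0.05, in percent on the x axis, for SGC-CBP30 and CPI203, with all 14732 genes tested in the bottom row. HNRNP genes and hnRNP proteins with other symbols were mostly lower with CPI203, and CLK genes and SR-related proteins mostly higher.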

How the data were processed

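RNA was sequenced by a service provider. The deposited table holds 1 RPKM value per gene and library, made by the authors' provider. The submitters' processing notes name TopHat 1.4.1, Cufflinks and hg19. Strand and multimapping settings are not given in the sources used here. Of the table's 63129 rows, 27 with a missing value were left out, and 24 columns of other libraries were not used. RPKM was taken as log2(RPKM + 0.1), so fold changes of low genes are understated. All genes averaging 1 RPKM or more were fitted with limma 3.58.1 (R 4.3.3; 4 group means, 8 libraries, intensity trend, 4 residual and 5.48 prior degrees of freedom), with two-sided p-values adjusted by Benjamini-Hochberg over 14732 genes. A gene was called at 1.5-fold or more with an adjusted p under 0.05. On simulated data for the CPI203 comparison (14732 genes, 200 changed, each by more than 1.5-fold, with independent noise), 85% were recovered and 2 others called. In the real comparison 31.1% of genes passed as higher and 33.1% as lower, so the simulation checks the fit and does not give its error rate here. An exact permutation test of 2 libraries against 2 cannot go below p = 0.333 and was not used. Low RPKM values were whole multiples of a read (within 0.1) for 58.7% to 71.4% of those used, too few for a count test. All members are accounted for. Values in every library were given for members called with a compound or in the difference, CLK1 to CLK4, TRA2A, TRA2B, SRSF1 to SRSF7 and the 3 highest members, and the called genes with the 2 largest rises and falls were named from each other list. Alternatives changed the pseudocount, the minimum level, the scaling, the controls, the trend or left out a library. Members and lists were chosen with earlier results of these data known. The study describes its DMSO controls as paired, but beyond the replicate numbers the labels name no pairs. Same-numbered libraries did not deviate in the same direction (r = -0.17 and -0.04 over 8298 genes), so the replicate number was not a block in the main fit. Fits with same-numbered and crossed pairs as blocks are given below.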

Additional observations from a re-analysis of the deposited data

How the results depend on the processing

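The alternatives for the DMSO comparison were added after seeing the data. Precision is limited by 2 libraries a group, and p-values rest on a spread shared across genes. With no minimum fold change, SGC-CBP30 passed 11 members higher and 10 lower, CPI203 12 and 20, the difference between effects 18 and 8, and the DMSO comparison 13 and 6. With a minimum of 2-fold, the CPI203 count of higher members was 0, the difference gave 4 and 0, and the DMSO comparison 1 lower. With all 4 DMSO libraries as controls, CPI203 called 1 member higher (CLK1), SGC-CBP30 passed 6 higher and 3 lower, HNRNPL turned to 0.012 with SGC-CBP30 (adjusted p = 0.946), HNRNPA1 to -0.16 (adjusted p = 0.665), and HNRNPA1L2 to 0.45 with CPI203 (adjusted p = 0.497). Median scaling gave 7 higher and 16 lower for SGC-CBP30 and 3 called lower for the difference. Quantile normalization gave 5 lower for SGC-CBP30 and 2 called lower for the difference, and the difference for HNRNPA2B1 turned from -0.00 to 0.14 (adjusted p = 0.0338). Without the intensity trend, SGC-CBP30 passed 6 lower and the DMSO comparison 8 higher. The cause was not tested in these cases beyond the settings' own construction.

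Leaving out 1 library at a time, CPI203 called 1 to 4 higher (1 without the second DMSO library) and 5 to 6 lower, and passed 12 to 12 higher and 20 to 21 lower. SGC-CBP30 called 0 to 0 and passed 8 to 11 higher and 7 to 11 lower. The difference called 7 to 7 higher and 1 to 3 lower (2 without DMSO replicate 1 of the SGC-CBP30 experiment or CPI203 replicate 2, and 3 without SGC-CBP30 replicate 2 or DMSO replicate 1 of the CPI203 experiment), and passed 16 to 20 and 6 to 8. The DMSO comparison called 0 to 0 and 2 to 2, and passed 9 to 13 and 5 to 6.

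With the replicate number as a block, SGC-CBP30 called 0 and 0 members, CPI203 3 higher and 6 lower and the difference 7 and 1, as without it, and the passed counts were 9 and 9, 12 and 20, and 17 and 6. The block changed no other count by over 1.5 times. It ended the difference for SRSF11, HNRNPUL2 and HNRNPA0 (adjusted p = 0.0782, 0.112 and 0.0985) and the SGC-CBP30 call for HNRNPR, HNRNPA0 and HNRNPK (adjusted p = 0.0549, 0.0924 and 0.0751). Crossed pairing in the SGC-CBP30 experiment, chosen after seeing the data, called the same numbers (0 and 0, 3 and 6, 7 and 1). Among single genes, 2804 values under alternatives kept direction and side of the threshold, 124 lost the call, 44 gained it and 4 reversed.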
